A study of Mus musculus with 48 samples.

Results

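The immediate early genes described here are Fos, Fosb, Jun, Junb, Egr1, Ier2, Ier3, Atf3, Dusp1 and Gadd45b. They were taken by name: every probe set (a set of short probes that together read 1 transcript) to which the array's gene table gives 1 of these symbols was kept, which found 16 probe sets for 10 genes among the 12422 probe sets measured. Fosb, Jun, Ier2, Ier3 and Dusp1 had 1 probe set each, Fos, Junb, Egr1 and Gadd45b had 2, and Atf3 had 3. For a gene with several sets, the set with the highest mean signal is called its lead set (Fos 160901_at, Junb 102362_i_at, Egr1 98579_at, Atf3 104155_f_at and Gadd45b 102779_at). Sets with the endings _f_at, _i_at and _r_at did not meet all of the manufacturer's rules for choosing probes.

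Immediate early genes are transcribed within minutes of a stimulus such as a growth factor, a hormone, injury or handling stress, from factors already present in the cell, without new protein synthesis. Their promoters are read by serum response factor with its Ets partners and by CREB and ATF proteins at the end of MAP kinase and cyclic AMP signalling, and their messages are short-lived. Several encode transcription factors of the AP-1, Egr and ATF families that act on later genes, and others encode proteins that shut the signal off again.

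RNA came from liver, heart, spleen and lung of male littermates, 3 months old, of strain A/J or strain C57BL/6J, and the labels name no treatment. The labels name a time 1 and a time 2 for every tissue and strain but do not say what they stand for. There were 3 biological replicates in each of the 16 groups and 1 Affymetrix MG-U74Av2 array per sample, 48 in all. The labels name no array run. The array names in the sample descriptions fall into 4 sets, which are taken here as array runs. They are liver and lung at time 1, heart at time 1, spleen at time 1, and all 4 tissues at time 2. If so, the strains share a run and tissues can be compared within a run at time 2 (and liver with lung at time 1). The time and the run cannot then be told apart.

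The values are log2 signals as deposited, and a difference of 1 is a 2-fold change. Tests are from limma with Benjamini-Hochberg adjustment over all 12422 probe sets, a probe set is called at an adjusted p below 0.05, and the p-values measure the spread between these animals, whose number limits the precision. The labelled tissues had their own markers: the mean signal of the hepatocyte markers was 13.25 to 13.66 in liver, that of cardiomyocyte markers 13.64 to 13.90 in heart, that of B cell markers 12.13 to 12.92 in spleen and that of lung epithelial markers 13.00 to 13.19 in lung. Some arrays also carried markers of a neighbouring organ. Exocrine pancreas markers stood at 12.25 to 13.14 in 5 of 12 spleen arrays (A/J time 1 replicates 1 and 3, C57BL/6J time 1 replicate 2, C57BL/6J time 2 replicates 1 and 3) and at 13.01 in 1 liver array (C57BL/6J time 2 replicate 2), against 9.29 to 10.11 in the other spleens. Lung epithelial markers reached 10.29 to 11.05 in the 3 C57BL/6J hearts at time 1 and 10.39 in 1 at time 2 (replicate 2), against 9.34 to 10.10 in the other hearts. Hepatocyte markers were at 9.59 to 10.28 in 5 of 6 lungs at time 1 (8.69 in C57BL/6J replicate 1) and at 8.22 to 8.72 in the 6 lungs at time 2, and at 9.31 to 10.13 in the A/J spleens at time 2 against 8.33 to 9.03 in the other spleens. Some results for spleen are therefore also given without the 5 arrays. The other spleen differences, among them those of the list genes, are given with all spleen arrays only. In whole tissue, fewer cells of a type and less RNA per cell cannot be told apart.

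The sequences from 250 bases before to 50 after the annotated transcription start, from RefSeq on GRCm38.p6, are held here for 8 of the 10 genes. The promoters of Fos, Junb and Dusp1 are printed because these 3 genes carry the main patterns below: Fos the widest spread between animals, Junb a rise at time 2 in every tissue by 1 of its 2 sets, and Dusp1 the levels most like those of Fos across groups. Each is written 5′ to 3′ on the strand of the gene, with capitals for the letters TGACG and TGACGTCA, the core and the full palindrome that CREB and ATF proteins bind, and for TATAAA, the TATA box. Fos lies at chr12:85473640-85473939 on the plus strand, Junb at chr8:84978699-84978998 on the minus strand and Dusp1 at chr17:26508423-26508722 on the minus strand.
Fos: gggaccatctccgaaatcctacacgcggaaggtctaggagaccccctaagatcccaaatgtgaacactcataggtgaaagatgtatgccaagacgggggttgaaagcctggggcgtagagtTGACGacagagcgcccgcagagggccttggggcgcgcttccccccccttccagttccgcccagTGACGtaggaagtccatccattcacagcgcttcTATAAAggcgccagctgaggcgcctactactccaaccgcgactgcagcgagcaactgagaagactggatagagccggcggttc
Junb: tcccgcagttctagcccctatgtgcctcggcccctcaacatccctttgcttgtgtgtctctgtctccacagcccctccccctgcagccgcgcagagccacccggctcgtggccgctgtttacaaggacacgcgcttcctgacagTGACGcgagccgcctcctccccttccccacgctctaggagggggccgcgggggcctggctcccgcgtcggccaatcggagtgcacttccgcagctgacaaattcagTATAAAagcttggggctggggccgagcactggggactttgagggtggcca
Dusp1: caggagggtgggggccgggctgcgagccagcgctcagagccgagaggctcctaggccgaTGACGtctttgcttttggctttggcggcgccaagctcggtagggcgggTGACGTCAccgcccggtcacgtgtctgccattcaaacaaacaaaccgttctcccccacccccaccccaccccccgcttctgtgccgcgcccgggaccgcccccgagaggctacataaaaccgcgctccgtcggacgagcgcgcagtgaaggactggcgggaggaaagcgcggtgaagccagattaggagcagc

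In the Fos window TGACG begins at positions -129 and -66 and TATAAA spans -33 to -28, counted from the start site as +1 with no position 0. In the Junb window TGACG begins at -106 and TATAAA lies at +1 to +6 of the annotated start. Dusp1 has TGACG at -191 and the palindrome at -143 to -136. Searched on both strands, TGACG was found in 5 of the 8 windows (Fos, Fosb, Junb, Atf3 and Dusp1) and in 20.81% of all 32851 windows of the same length, and TGACGTCA, which contains it, in 1 of 8 and in 1.79%. TATAAA, searched on the strand of the gene, was found in Fos, Junb and Gadd45b and in 8.32% of all windows. The Egr binding letters GCGNGGGCG, on both strands, were found in Fosb and Gadd45b and in 5.55% of windows. The AP-1 letters TGANTCA, held by 7.81% of windows, and the CArG box of serum response factor, held by 1.63%, were in none of the 8, which says only that these letters are not in these windows.

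Fos, the AP-1 subunit that pairs with Jun proteins, was far higher in lung than in the other tissues and differed widely between animals of the same group. In lung, the A/J arrays read 9.31, 9.28 and 10.49 at time 1 and 10.39, 10.57 and 9.14 at time 2. The C57BL/6J lungs read 8.96, 8.94 and 9.34 at time 1 and 12.19, 9.91 and 9.36 at time 2. Every lung array was above every array of the other 3 tissues, and C57BL/6J time 2 replicate 1 was the highest of all 48.

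Liver had the lowest Fos signals, with 5.97, 6.29 and 6.37 in A/J and 6.50, 6.53 and 5.91 in C57BL/6J at time 1. At time 2 the livers gave 5.91, 6.05 and 5.94 in A/J and 6.88, 6.16 and 5.93 in C57BL/6J. These signals are low for the array and carry no detection call, so that a difference from them is best read as a lower bound.

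Heart and spleen lay between liver and lung for Fos. The hearts gave 6.18, 7.26 and 7.27 in A/J and 6.49, 6.41 and 7.29 in C57BL/6J at time 1. At time 2 the A/J hearts gave 6.56, 8.69 and 8.56 and the C57BL/6J hearts 8.46, 6.99 and 6.78. In spleen the range was 6.42 to 7.02 at time 1 and 6.24 to 8.46 at time 2, where C57BL/6J replicate 1 was again the highest. Heart and spleen overlapped in full, and at time 2 their means differed by 0.41 ± 0.44 (SE), adjusted p = 0.427 by limma.

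**Figure D1:**
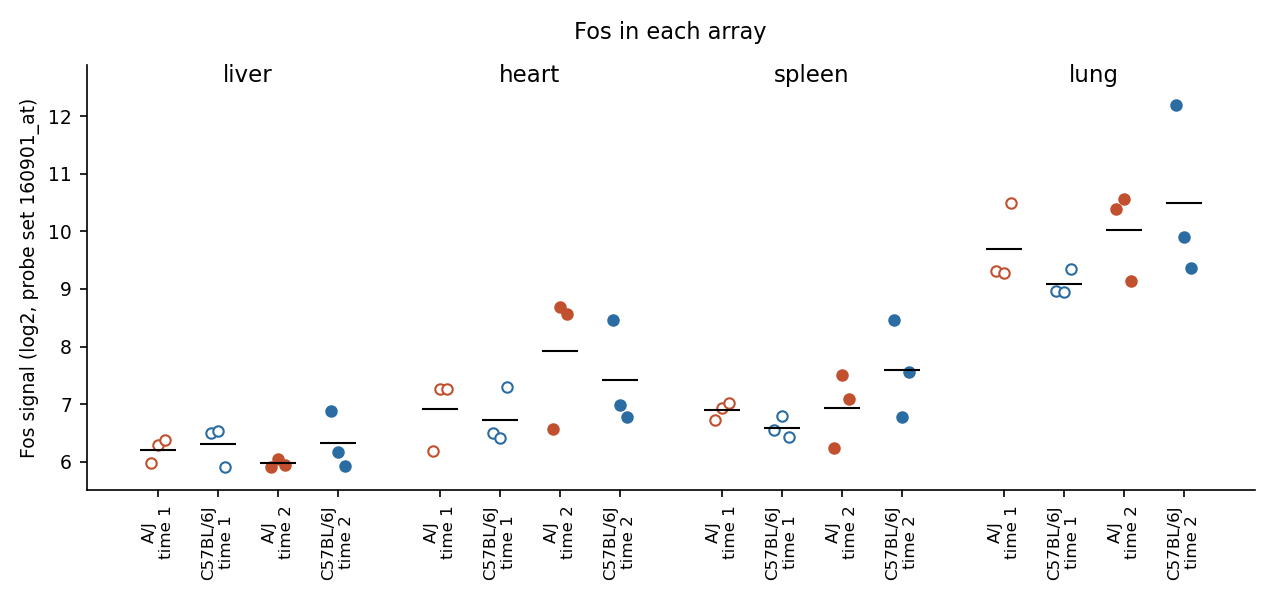
Fos signal (log2, probe set 160901_at) in each of the 48 arrays, by tissue, strain and time; open points are time 1, filled points time 2, orange A/J, blue C57BL/6J, and bars are group means (n = 3). All 12 lung arrays lie between 8.94 and 12.19, above the arrays of the other tissues, and C57BL/6J lung at time 2 runs from 9.36 to 12.19.

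At time 2 all tissues appear to share 1 array run. There Fos was lower by 4.11 in liver than in lung (SE 0.44, 17.3-fold, adjusted p = 2.11e-08). The difference was -2.59 for heart against lung (adjusted p = 2.29e-05) and -2.99 for spleen against lung (adjusted p = 3.91e-06). Liver was also below heart, by a difference of -1.53 (adjusted p = 0.00523). The difference of liver from spleen, -1.12 (adjusted p = 0.0327), was lost in 7 of 12 cases when single arrays were left out (A/J liver replicates 1 and 3, C57BL/6J liver replicates 2 and 3, A/J spleen replicates 2 and 3, C57BL/6J spleen replicate 1), where the adjusted p ran from 0.0162 to 0.0948. Without the spleen arrays with pancreas markers it was -0.71 (adjusted p = 0.277). At time 1 the difference of liver from lung was -3.13 (SE 0.19, adjusted p = 1.87e-09). The second Fos probe set, 161716_at, did not have lung highest: its tissue ranges were 7.14 to 7.81 in liver, 6.98 to 7.55 in heart, 7.05 to 7.64 in spleen and 7.18 to 7.68 in lung. At time 2 spleen was lower by this set than heart (by 0.34), lung and liver (0.22, a call lost in 2 of 12 leave-outs), and liver and lung were not called apart (-0.02, adjusted p = 0.848).

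Fosb, a close relative of Fos, differed little between tissues. Its ranges were 9.36 to 9.70 in liver, 9.17 to 9.53 in heart, 9.29 to 9.54 in spleen and 9.46 to 10.25 in lung. Only the 3 C57BL/6J lungs at time 2, with 10.25, 9.99 and 9.81, stood above all other arrays, and lung exceeded the other tissues by 0.32 to 0.39 at time 2 (adjusted p = 2.05e-05 to 0.000201).

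Among the Jun family, Jun, the partner of Fos in AP-1, was highest in lung. Its range there was 9.50 to 10.22 with a median of 9.94, and no array of another tissue reached it. Heart, at 9.15 to 9.40 (median 9.23), was in turn above all arrays of liver (8.55 to 8.92) and spleen (8.56 to 8.91). The differences at time 2 were -1.14 for liver against lung (2.2-fold, adjusted p = 3.43e-12), -0.64 for heart against lung (adjusted p = 9.71e-08) and -0.50 for liver against heart (adjusted p = 4.9e-06), whereas liver and spleen overlapped and were not called apart. Junb, a Jun protein with weaker activity, was low in liver (9.66 to 10.16, median 9.78) and heart (9.70 to 10.38, median 10.05) and higher in spleen (10.10 to 11.32, median 10.46) and lung (10.15 to 11.73, median 10.53). Liver was below spleen at time 2 by a Junb difference of -0.87 (adjusted p = 6.74e-05) and below lung by one of -1.12 (adjusted p = 2.38e-06), and the second Junb set, 102363_r_at, gave -0.53 and -0.66 for the same comparisons (adjusted p = 0.0013 and 0.000124). Spleen and lung were not called apart for either Junb set.

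Egr1, a zinc finger factor that responds to nearly any mitogen, differed little across tissues by its lead set. Its lead set had medians of 9.78 in liver, 9.81 in heart, 9.93 in spleen and 10.11 in lung, with overlapping ranges. Heart was below lung at time 2 by an Egr1 difference of -0.64 (SE 0.22, adjusted p = 0.0122), which became -0.39 (adjusted p = 0.0493) without C57BL/6J lung time 2 replicate 1. At time 1 liver was below lung by a difference of -0.20 (adjusted p = 0.00465), and at time 2 that difference was -0.44 and not called (adjusted p = 0.076). The second Egr1 set, 161802_i_at, stayed between 6.61 and 7.74 in all tissues and was not called in any tissue comparison.

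Atf3, a stress-induced repressor of the ATF family, was highest by its lead set in heart and, at time 2, in lung. Over both times the ranges were 8.72 to 9.84 in heart (median 9.27) and 8.78 to 10.24 in lung (median 9.09). They were 8.49 to 8.93 in liver (median 8.73) and 8.53 to 9.05 in spleen (median 8.84). At time 1 lung, at 8.78 to 8.99, overlapped liver (8.59 to 8.90) and spleen (8.53 to 9.05), with heart at 8.95 to 9.84. At time 2 liver was below heart by an Atf3 difference of -0.50 (adjusted p = 0.00431) and below lung by one of -0.76 (adjusted p = 6.02e-05), and heart and lung were not called apart (-0.26, adjusted p = 0.109). The 3 Atf3 sets disagreed: 161645_r_at was higher in liver than in lung, by 0.52 (adjusted p = 6.17e-05), and 104156_r_at was not called there (-0.14, adjusted p = 0.11).

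Ier2, a small nuclear protein of the immediate early class, had a tissue order of its own with heart lowest. Its ranges were 8.23 to 9.12 in heart (median 8.76), 8.69 to 10.23 in liver (median 9.33), 9.79 to 10.95 in spleen (median 10.19) and 10.21 to 11.53 in lung (median 10.42). No heart array reached the lowest spleen array. At time 2 heart was below lung by an Ier2 difference of -2.07 (4.2-fold, adjusted p = 2.1e-09), below spleen by one of -1.78 (adjusted p = 2.06e-08), and liver was above heart by 0.96 (adjusted p = 0.000161). Spleen and lung were not called apart.

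Ier3, which modulates survival and NF-kappaB signalling, separated all 4 tissues. Its ranges were 8.28 to 8.83 in liver (median 8.52), 8.79 to 9.63 in spleen (median 9.12), 9.54 to 10.70 in heart (median 10.02) and 10.97 to 12.31 in lung (median 11.33). Lung stood apart from all others, and spleen overlapped both liver and heart at the ends of its range. All 6 pairs of tissues were called apart at time 2, from a difference of -0.64 between liver and spleen (adjusted p = 8.18e-05) to one of -2.86 between liver and lung (7.28-fold, adjusted p = 7.81e-16).

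Dusp1, the phosphatase that switches off MAP kinases, followed the same order as Fos. The ranges were 9.60 to 11.29 in liver (median 10.37), 10.24 to 11.41 in spleen (median 10.78), 10.83 to 11.88 in heart (median 11.38) and 12.24 to 13.53 in lung (median 12.71). Lung was above every array of the others, while liver, spleen and heart overlapped. The differences from lung at time 2 were -2.52 for liver (5.74-fold, adjusted p = 3.6e-10), -1.95 for spleen (adjusted p = 4.28e-08) and -1.50 for heart (adjusted p = 2.05e-06).

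Gadd45b, which binds stress kinase activators and the demethylation machinery, was likewise highest in lung. Its lead set ranged from 10.16 to 10.63 in lung (median 10.32) and did not exceed 9.91 in any other tissue. Liver (8.47 to 9.41, median 9.15), heart (8.87 to 9.41, median 9.16) and spleen (8.78 to 9.91, median 9.25) overlapped. The differences from lung at time 2 were -0.97 for liver (adjusted p = 5.63e-12), -1.07 for heart (adjusted p = 1.29e-12) and -0.70 for spleen (adjusted p = 2.89e-09). The second set, 161666_f_at, gave larger ones of -2.43, -2.84 and -1.86 (adjusted p = 4.05e-13, 3.22e-14 and 9.14e-11).

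**Figure D2:**
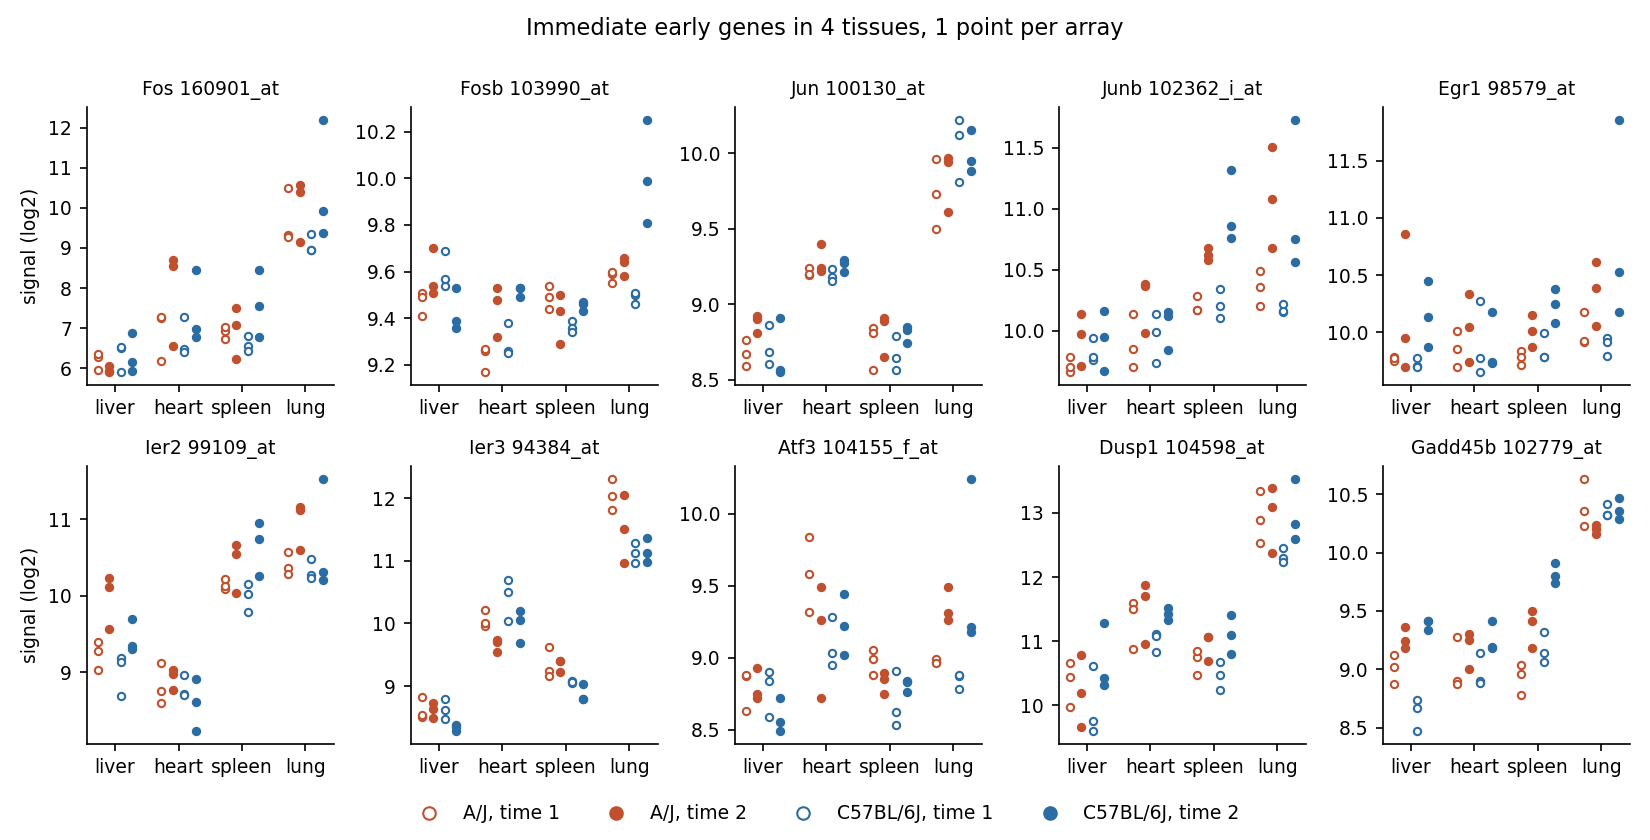
Signal (log2) of the lead probe set of each of the 10 genes in liver, heart, spleen and lung, 1 point per array (n = 12 per tissue); open points are time 1, filled points time 2, orange A/J, blue C57BL/6J, and each panel has its own axis. Lung holds the highest points for Fos, Jun, Ier3, Dusp1 and Gadd45b without overlap, while Ier2 is lowest in heart and Egr1 overlaps across tissues.

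Counted over the 16 probe sets, 12 differed between liver and lung at time 2 (66.1% of all probe sets did), 12 between heart and lung (68.5%), 10 between spleen and lung (53.0%), 9 between liver and heart (56.8%), 10 between liver and spleen (61.4%), 9 between heart and spleen (67.0%) and 12 between liver and lung at time 1 (79.7%). These shares are near those of all probe sets and are no result about these genes. The direction was less even. Of the 16, 11 were called higher in lung than in liver at time 2, against 31.7% of all probe sets, 11 were higher in lung than in heart (29.3%), 9 higher than in spleen (23.8%), and 10 higher than in liver at time 1 (32.6%). The median difference of the 16 was -0.86 for liver against lung at time 2, where that of all probe sets was 0.04. It was -0.64 against 0.08 for heart and lung, -0.44 against 0.04 for spleen and lung, and -0.40 against 0.11 for liver and lung at time 1. The mean of 7 endothelial markers was highest in lung too, at 11.63 to 12.06 against 9.33 to 9.56 in liver, 10.50 to 10.67 in heart and a median of 9.77 in spleen. For 6 of the 7 every lung array was above all others, and Pecam1 was flat (medians of 9.88 to 9.91), and the part of these markers in the differences was not tested.

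Other immediate early and growth factor response genes, a list of 60 of which 52 were measured, also stood higher in lung. At time 2 the list had 33 genes higher in lung than in liver and 6 lower (median difference -0.60). Against heart 29 were higher and 8 lower (-0.41), and against spleen 24 and 11 (-0.12). Of all probe sets, 31.7%, 29.3% and 23.8% were called higher in lung in these comparisons. Klf6, a zinc finger factor, was lower in liver than in lung by a difference of -2.83 (adjusted p = 2.01e-20), and Klf4 by one of -3.65 (adjusted p = 2.45e-17). Ccn2, a secreted matrix protein, differed by -3.60 (adjusted p = 2.34e-19). Upstream regulators (kinases, Ras and the factors that read them, 23 of 32 measured) did not lean the same way: 7 were higher in lung than in liver and 10 lower (median 0.10). Egfr, the epidermal growth factor receptor, was higher in liver by 2.87 (adjusted p = 1.18e-20) and Nras, a Ras protein, lower by a difference of -1.61 (adjusted p = 8.7e-15).

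Between the times, more members rose than fell, with the array run differing in the same way. Junb rose from time 1 to time 2 in all 4 tissues by its set 102363_r_at, by 0.29 in liver (adjusted p = 0.00747), 0.35 in heart (adjusted p = 0.004), 0.51 in spleen (adjusted p = 0.003) and 0.65 in lung (adjusted p = 0.00293). By the lead set the A/J spleens read 10.17, 10.28 and 10.17 at time 1 and 10.62, 10.68 and 10.58 at time 2. The C57BL/6J spleens read 10.20, 10.10 and 10.34 and then 11.32, 10.86 and 10.76. Every spleen at time 2 was above every spleen at time 1, and the lead set differed by 0.59 in spleen (SE 0.10, 1.51-fold, adjusted p = 0.001). In lung it read 10.20, 10.49 and 10.36 in A/J and 10.15, 10.16 and 10.22 in C57BL/6J at time 1. At time 2 it read 11.08, 11.51 and 10.68 in A/J and 11.73, 10.75 and 10.56 in C57BL/6J. The 2 times did not overlap in lung either, and the difference was 0.79 (SE 0.17, 1.73-fold, adjusted p = 0.00381). The hepatocyte markers given above also differed between the times in lung, and their part in the lung differences was not tested. The lead set was not called in liver (0.16, adjusted p = 0.13) or heart (0.21, adjusted p = 0.124), and its difference between the times was called unequal over the 4 tissues (adjusted p = 0.0122), a call lost without replicate 1 (adjusted p = 0.193) or replicate 2 (adjusted p = 0.0705).

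Egr1 rose by its lead set in liver, spleen and lung. In liver it read 9.78, 9.75 and 9.77 in A/J and 9.70, 9.77 and 9.69 in C57BL/6J at time 1. At time 2 the A/J livers read 10.86, 9.95 and 9.69 and the C57BL/6J livers 10.45, 10.13 and 9.87. One of the 6 livers at time 2, A/J replicate 3, was within the time 1 range. The difference was 0.42 (SE 0.15, adjusted p = 0.0368), and 0.26 without A/J liver time 2 replicate 1 (adjusted p = 0.0475). Leaving out single arrays lost the call in 8 of 12 cases, each of the 6 arrays of time 1 and C57BL/6J time 2 replicates 1 and 2, with adjusted p up to 0.0872. The second Egr1 set, 161802_i_at, went the other way in liver (-0.40, adjusted p = 0.0112).

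In spleen the Egr1 range moved from 9.71 to 9.99 at time 1 to 9.87 to 10.38 at time 2, and the means differed by 0.31 (SE 0.07, adjusted p = 0.00708). In lung it moved from 9.79 to 10.18 to 10.05 to 11.86, and the means differed by 0.66 (SE 0.23, adjusted p = 0.036). The highest lung array was again C57BL/6J time 2 replicate 1, and without it the lung difference was 0.40 (adjusted p = 0.0115). The lung call was lost in 7 of 12 cases (without A/J time 1 replicate 1 or 2, any C57BL/6J array of time 1, or A/J time 2 replicate 1 or 2), with adjusted p up to 0.0698. Egr1 in heart was not called (0.09). The second set, 161802_i_at, did not show the rises in spleen and lung. It gave -0.17 in spleen, not called (adjusted p = 0.139), and its lung means were 7.14 at time 1 and 7.12 at time 2.

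Ier2 rose in liver and spleen. The A/J livers read 9.28, 9.40 and 9.03 at time 1 and 10.12, 10.23 and 9.57 at time 2. The C57BL/6J livers read 9.19, 8.69 and 9.14 and then 9.70, 9.34 and 9.31. Within each strain the times did not overlap, and the difference was 0.59 (SE 0.13, 1.51-fold, adjusted p = 0.00209). In spleen it was 0.47 (adjusted p = 0.0193), and in lung 0.46, which was not called (adjusted p = 0.0699).

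Gadd45b rose by its lead set in 3 tissues and not in lung. The A/J livers read 8.87, 9.02 and 9.12 and then 9.18, 9.36 and 9.24, and the C57BL/6J livers 8.67, 8.47 and 8.74 and then 9.41, 9.41 and 9.34. All 6 livers of time 2 were above all 6 of time 1, and the difference was 0.51 (SE 0.09, adjusted p = 0.000563). It was 0.54 in spleen (SE 0.08, adjusted p = 0.000459), 0.23 in heart (adjusted p = 0.0453) and -0.09 in lung, and these differences were called unequal over the tissues (adjusted p = 1.76e-05). The heart call held in 3 of 12 cases when single arrays were left out (without A/J or C57BL/6J time 1 replicate 1 or A/J time 2 replicate 3), and the adjusted p reached 0.102. The second set, 161666_f_at, did not show these rises. It fell in heart (-0.52, adjusted p = 0.0108) and was not called in liver (0.01, adjusted p = 0.969). Its spleen means were 8.88 at time 1 and 8.75 at time 2.

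Fosb rose in heart (0.21, adjusted p = 0.00399) and lung (0.29, adjusted p = 0.0249). The lung call for Fosb was lost without C57BL/6J time 1 replicate 2 or 3 (adjusted p up to 0.0599), and within strains the lung difference was 0.52 in C57BL/6J (adjusted p = 0.0357) and 0.05 in A/J (adjusted p = 0.564), with a difference between the strains of -0.47 that was not called (adjusted p = 0.132). Atf3 104156_r_at rose in spleen by 0.22 (adjusted p = 0.0412), a call kept in 3 of 12 leave-outs (without C57BL/6J time 1 replicate 1, A/J time 2 replicate 2 or C57BL/6J time 2 replicate 2). Atf3 rose in lung by its lead set, from 8.97, 8.99, 8.96, 8.87, 8.78 and 8.88 at time 1 to 9.26, 9.31 and 9.49 in A/J and 10.24, 9.21 and 9.18 in C57BL/6J. The times did not overlap, and the difference was 0.54 (SE 0.15, adjusted p = 0.0128), and 0.37 (adjusted p = 0.000631) without C57BL/6J lung time 2 replicate 1. In the other tissues the Atf3 lead set was not called, and its differences were unequal over tissues (adjusted p = 0.00366). The other Atf3 sets did not show this rise in lung. Their lung means at time 1 and then time 2 were 8.74 and 8.78 for 104156_r_at, and 8.60 and 8.49 for 161645_r_at.

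Dusp1 rose in spleen (0.44, SE 0.13, adjusted p = 0.0178) and was not called elsewhere. Ier3 fell in heart, from 9.96, 10.21 and 10.01 to 9.74, 9.54 and 9.70 in A/J and from 10.04, 10.50 and 10.70 to 9.69, 10.20 and 10.05 in C57BL/6J. The times overlapped over both strains, and the heart difference was -0.42 (SE 0.11, adjusted p = 0.00818). Lung epithelial markers in the same hearts were at 10.29, 11.05 and 10.78 in C57BL/6J at time 1 and at 9.34, 10.39 and 9.39 at time 2, and at 9.76, 10.10 and 9.61 and then 9.57, 9.42 and 9.38 in A/J, and their part in the Ier3 difference was not tested. Jun was not called in any tissue, with differences of 0.03 to 0.11.

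Fos itself gave differences of -0.12 in liver, 0.85 in heart, 0.52 in spleen and 0.87 in lung, and none was called (adjusted p = 0.534, 0.0889, 0.167 and 0.13). The SEs were 0.15, 0.37, 0.28 and 0.43, wider than those of the other members in the same tissue except in liver. The second Fos set, 161716_at, rose in heart (0.29, adjusted p = 0.00573) and fell in spleen (-0.26, adjusted p = 0.0106), which the test over tissues also called unequal (adjusted p = 0.000483).

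**Figure D3:**
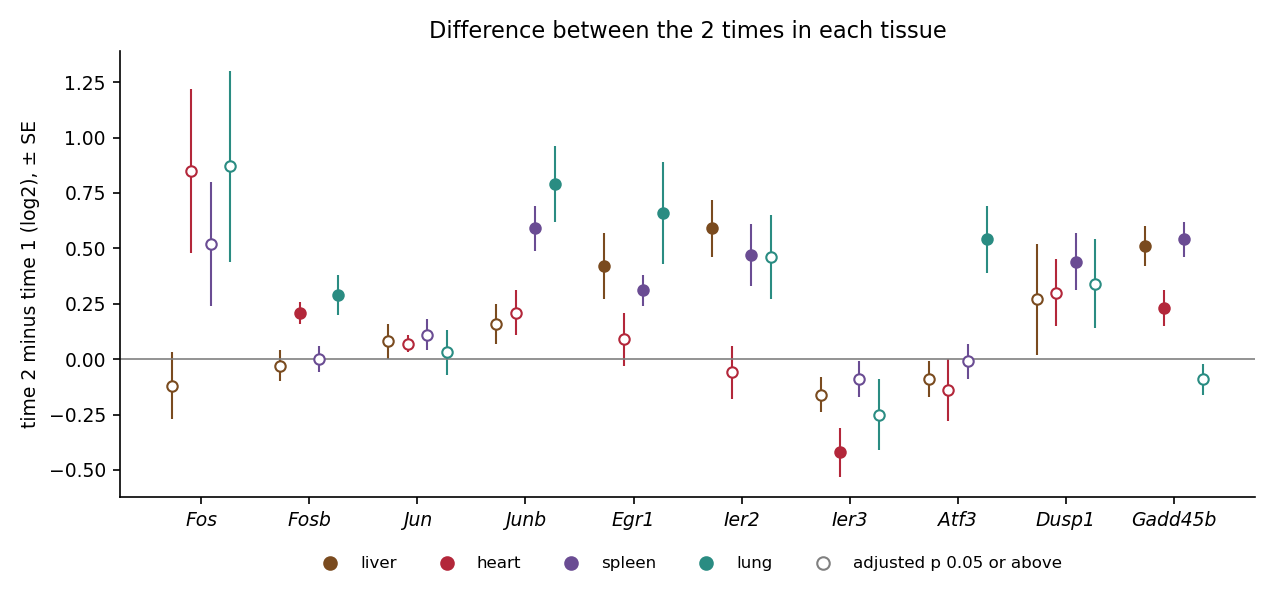
Difference in mean signal between time 2 and time 1 (log2, ± SE from limma, 6 arrays per time) for the lead probe set of each gene in liver, heart, spleen and lung; filled points passed an adjusted p of 0.05. Junb lies above 0 in all 4 tissues, Ier3 below 0 in all 4, and the error bars of Fos are the widest in heart, spleen and lung, while in liver that of Dusp1 is wider.

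In counts, 5 of the 16 sets were called between the times in liver (50.3% of all probe sets), 6 in heart (34.9%), 8 in spleen (31.9%) and 5 in lung (34.7%). These shares are near or below the background in liver, heart and lung. Called higher at time 2 were 4 of 16 in liver (20.2% of all probe sets), 4 in heart (15.7%), 7 in spleen (13.0%) and 5 in lung (15.8%). The median differences of the 16 were 0.01, 0.10, 0.16 and 0.16 in liver, heart, spleen and lung, and those of all probe sets -0.06, -0.02, -0.04 and -0.02. Differences between the times were called unequal over the tissues for 6 of 16 sets, against 55.0% of all. Without the 5 spleen arrays that carried pancreas markers, 7 were left, with only 1 in some groups. The spleen differences called above kept their sign. Among them were Gadd45b at 0.61, Junb at 0.47, Ier2 at 0.29, Dusp1 at 0.26 and Egr1 at 0.21. Most of the spleen calls were lost. Fewer arrays can lower the share called of all probe sets too, and that share is not given for these 7. The lost calls are therefore no result about these genes.

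The list of other immediate early genes had 16 higher and 9 lower of 52 in lung at time 2 (median 0.11). In spleen 15 were higher and 3 lower (0.07), in heart 5 and 10 (-0.08) and in liver 10 and 17 (-0.05). The calls were 48.1% of the list in lung, 34.6% in spleen, 28.8% in heart and 51.9% in liver. Of all probe sets 34.7%, 31.9%, 34.9% and 50.3% were called, and 15.8%, 13.0%, 15.7% and 20.2% were higher at time 2. The shares called in heart and liver are near or below those of all probe sets and are no result about the list. In heart Nfkbia, the inhibitor of NF-kappaB, fell by 0.66 (adjusted p = 1.61e-05) and Cdkn1a, a cell cycle inhibitor, by 0.64 (adjusted p = 1.96e-05). In lung Klf6 rose by 0.46 (adjusted p = 0.000467) and Phlda1, a growth response gene, by 0.48 (adjusted p = 0.0011). In spleen Irf1, an interferon response factor, rose by 0.50 (adjusted p = 0.00169). Of the 23 upstream regulators, 8 rose and 6 fell in liver, 3 and 2 in heart, 6 and 5 in spleen, and 5 and 7 in lung. That is 60.9%, 21.7%, 47.8% and 52.2% called, against 50.3%, 34.9%, 31.9% and 34.7% of all probe sets. Nras rose by 0.60 in liver (adjusted p = 3.82e-06), 0.49 in spleen (adjusted p = 0.0021) and 0.61 in lung (adjusted p = 0.000619).

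The strains differed in 2 of the 10 genes, Ier3 and Gadd45b. Ier3 was higher in A/J lung, with 12.31, 12.04 and 11.81 at time 1 and 11.51, 12.05 and 10.97 at time 2. The C57BL/6J lungs read 11.29, 10.97 and 11.12 and then 11.36, 10.99 and 11.13. At time 1 the strains did not overlap, and at time 2 A/J replicate 3 was the lowest of the 6. The difference over both times was 0.64 (SE 0.16, 1.56-fold, adjusted p = 0.0376), 0.92 at time 1 alone (adjusted p = 0.00703) and 0.35 at time 2 alone (adjusted p = 0.342). The call was kept in 3 of 12 cases when single arrays were left out (C57BL/6J time 1 replicate 1, C57BL/6J time 2 replicate 1 and A/J time 2 replicate 3), the adjusted p ran from 0.00246 to 0.0946, and the difference stayed between 0.55 and 0.79. Neutrophil markers in these lungs were at 9.25 to 9.96 in A/J and 9.78 to 10.66 in C57BL/6J, and their part in the Ier3 difference was not tested.

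Ier3 was also higher in A/J spleen, where it read 9.24, 9.63 and 9.16 at time 1 and 9.40, 9.40 and 9.23 at time 2. The C57BL/6J spleens read 9.05, 9.08 and 9.06 and then 8.79, 9.04 and 8.80. No C57BL/6J spleen reached the lowest A/J spleen, and the difference was 0.37 (SE 0.08, adjusted p = 0.0101). It was 0.43 and not called without the 5 arrays with pancreas markers (adjusted p = 0.0654). In heart the direction was the opposite, -0.34 (SE 0.11), but not called (adjusted p = 0.0717). At time 1 the lung epithelial markers given above were higher in every C57BL/6J heart than in every A/J heart. At time 2 this held for C57BL/6J replicate 2 alone (10.39). The other C57BL/6J hearts were then at 9.34 and 9.39, against 9.38 to 9.57 in A/J. The part of these markers in the heart difference was not tested. The Ier3 strain difference was called unequal over the 4 tissues (adjusted p = 0.00021), also with each replicate number left out (adjusted p = 0.00211 to 0.0413).

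Gadd45b was lower in A/J spleen by both sets. By the lead set the A/J spleens read 8.96, 8.78 and 9.04 at time 1 and 9.41, 9.18 and 9.50 at time 2, and the C57BL/6J spleens 9.06, 9.32 and 9.14 and then 9.91, 9.74 and 9.80. The strains did not overlap within either time. The difference was -0.35 (SE 0.08, adjusted p = 0.00881) by the lead set and -0.46 (SE 0.13, adjusted p = 0.0266) by 161666_f_at. The second call was lost in 5 of 12 leave-outs (without A/J time 1 replicate 2, C57BL/6J time 1 replicate 2 or 3, A/J time 2 replicate 1 or C57BL/6J time 2 replicate 3), with adjusted p up to 0.066. Without the 5 arrays with pancreas markers the differences were -0.35 (adjusted p = 0.146) and -0.36 (adjusted p = 0.406), and neither was called. In the same spleens erythroid precursor markers were at 11.66 to 12.51 in A/J and 9.34 to 11.63 in C57BL/6J. B cell markers were at 12.13 to 12.44 in A/J and 12.58 to 12.92 in C57BL/6J, and macrophage markers at 11.33 to 11.46 and 11.71 to 12.07. None of these 3 lists overlapped between the strains, and their part in the Ier3 and Gadd45b differences was not tested.

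In liver the strain difference of Gadd45b changed with time. By 161666_f_at the A/J livers read 8.54, 8.97 and 8.99 at time 1 and 7.52, 8.51 and 7.98 at time 2. The C57BL/6J livers read 7.78, 7.56 and 7.13 and then 8.43, 8.32 and 8.30. At time 1 all A/J livers were above all C57BL/6J livers, and at time 2 the A/J values spanned those of C57BL/6J. The change of the strain difference from time 1 to time 2 was -1.69 (SE 0.30, 3.22-fold, adjusted p = 0.00872), and with single arrays left out it stayed between -1.94 and -1.45 and was called each time. By the lead set, given above for the times, it was -0.50 (SE 0.12, adjusted p = 0.0364), and leaving out single arrays kept this call in 3 of 12 cases (A/J time 1 replicate 1, C57BL/6J time 1 replicate 3, A/J time 2 replicate 2), with adjusted p up to 0.0983. Over the 4 tissues the strain difference of Gadd45b was unequal for both sets (adjusted p = 0.00509 and 0.00622), a call lost without replicate 2 for both (adjusted p = 0.356 and 0.223) and without replicate 3 for 161666_f_at (adjusted p = 0.273).

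By count, the strains differed for 0 of the 16 sets in liver (4.07% of all probe sets; 3 of 16 at an unadjusted p below 0.05 by limma), 0 in heart (7.48%; 2 of 16), 3 in spleen (12.7%) and 1 in lung (5.22%). The change of the strain difference with time was called for 2 sets in liver (4.90%), 0 in heart (0.386%; 2 of 16 at an unadjusted p below 0.05 by limma), 0 in spleen (0.209%; 1 of 16) and 0 in lung (0.177%; 2 of 16). The strain difference was unequal over tissues for 3 sets, against 23.7% of all. These shares are near or below the background. The median strain difference of the 16 sets was 0.09 in liver, 0.06 in heart, -0.03 in spleen and -0.04 in lung, and that of all probe sets 0.02, 0.00, -0.01 and -0.02.

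The strains differed in 3, 5, 10 and 5 of the 52 other immediate early genes in liver, heart, spleen and lung. These are 5.8%, 9.6%, 19.2% and 9.6% of the list, against 4.07%, 7.48%, 12.7% and 5.22% of all probe sets. In spleen Odc1, an enzyme of polyamine synthesis, was higher in A/J by 1.16 (adjusted p = 0.000344) and Klf4 lower by a difference of -0.64 (adjusted p = 0.00096). Ptgs2, the inducible cyclooxygenase, was higher in A/J lung by 0.64 (adjusted p = 0.00114). Cebpd, an acute phase transcription factor, had a change of the strain difference with time in liver of -1.31 (adjusted p = 0.00165).

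Many of the 16 member sets stood out by how much animals of 1 group differed. Fos had a within-group SD of 0.70, pooled over the 16 groups, which was rank 21 among the 12422 probe sets, whose median was 0.12. Dusp1 had 0.38 (rank 84), Egr1 0.33 (rank 136), Ier2 0.30 (rank 177), the second Gadd45b set 0.29 (rank 216) and Junb 0.25 (rank 394). Of the 16 sets, 9 lay above the 90th percentile of this spread and 15 above the 50th. Fosb was lowest at 0.09 (rank 11265). The lead sets of Jun and Gadd45b, Fos 161716_at, and Atf3 104156_r_at and 161645_r_at lay between percentiles 61.6 and 73.4.

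For several sets this spread was larger at time 2, a difference that was not tested. Fos had an SD of 0.42 at time 1 and 0.90 at time 2, Egr1 0.15 and 0.44, Junb 0.13 and 0.32, Ier2 0.19 and 0.38, and Dusp1 0.33 and 0.43. Other sets had a smaller spread at time 2, among them the second sets of Fos (161716_at, 0.16 and 0.13), Egr1 (161802_i_at, 0.20 and 0.17) and Gadd45b (0.30 and 0.28), and the lead sets of Jun (0.14 and 0.13) and Gadd45b (0.15 and 0.11). The median over all probe sets was 0.11 and 0.13. By tissue the median SD of the 16 sets was 0.30 in lung, 0.19 in liver, 0.19 in heart and 0.14 in spleen. The medians of all probe sets were 0.113, 0.114, 0.103 and 0.127. In spleen the median percentile of the 16 sets was 62.6, so that they stood out little there. The time and the array run cannot be told apart here either.

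**Figure D4:**
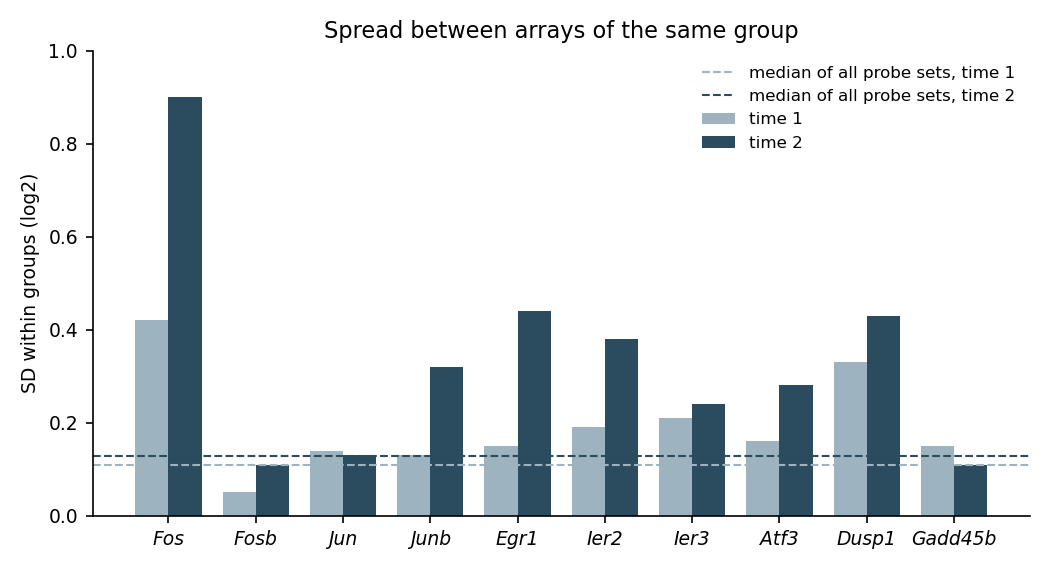
Standard deviation (log2) between arrays of the same group for the lead probe set of each gene, pooled over the 8 groups of time 1 (light) and of time 2 (dark); dashed lines are the medians over all 12422 probe sets, 0.11 and 0.13. Fos has the tallest bars, 0.42 and 0.90, and Jun and Gadd45b do not exceed their time 1 bar at time 2.

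The arrays that were high for Fos within their group were also high for some of the others. With group means removed, the deviations of Fos over 48 arrays went with those of Ier2 (Pearson r = 0.76, Spearman rho = 0.70, adjusted permutation p = 3.6e-04 and 6.3e-04) and Junb (r = 0.74, rho = 0.63, adjusted permutation p = 0.00112 and 0.00238). The same held for Egr1 (r = 0.66, rho = 0.56, adjusted permutation p = 0.00159 and 0.00497) and Dusp1 (r = 0.58, rho = 0.59, adjusted permutation p = 0.00205 and 0.00267). The raw p-values for r, from 100000 two-sided permutations within groups, were 4.0e-05, 2.5e-04, 5.3e-04 and 9.1e-04, adjusted over the 9 relations computed. The permutations treat the 48 arrays as independent. The sources do not say whether tissues of the same mouse are among them, and if they are, these p-values could be too small.

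The other 5 relations with Fos did not pass. Atf3 had r = 0.55 (rho = 0.35, adjusted permutation p = 0.0874), Fosb 0.30 (0.419), Jun 0.18 (0.419), Ier3 0.11 (0.551) and Gadd45b -0.14 (0.508), where the second number is the adjusted permutation p. Over all 45 pairs of members the median r was 0.25, with 9 pairs above 0.5.

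The 2 arrays farthest from the median of the Fos deviation were C57BL/6J lung time 2 replicate 1 (1.70) and A/J heart time 2 replicate 1 (-1.38). Without them r was 0.71 for Ier2, 0.66 for Junb, 0.54 for Egr1 and 0.50 for Dusp1. Within tissues, in the order liver, heart, spleen and lung, r was 0.18, 0.68, 0.87 and 0.97 for Ier2 and 0.66, 0.68, 0.54 and 0.88 for Junb. It was 0.29, 0.68, 0.05 and 0.95 for Egr1 and 0.74, 0.75, 0.56 and 0.60 for Dusp1. Within tissues, the relations that passed were Dusp1 in liver (adjusted permutation p = 0.0477) and Ier2, Egr1 and Fosb in lung (0.0281, 0.0281 and 0.0293). Most of the relation lay in time 2, with r of 0.86 for Ier2, 0.83 for Junb and 0.71 for Egr1, against 0.29, 0.27 and 0.32 at time 1. Dusp1 had 0.61 and 0.58. Without replicate 1 of every group none of the 4 relations passed, with r of 0.49 for Ier2, 0.51 for Junb, 0.73 for Egr1 and 0.56 for Dusp1 (adjusted permutation p = 0.232, 0.634, 0.232 and 0.232 over 32 arrays). Without replicate 2 Ier2 and Junb passed (both 0.032), and Egr1 (0.0631) and Dusp1 (0.0873) did not. Without replicate 3 Ier2, Junb and Dusp1 passed (all 0.00468), and Egr1 (0.256) did not. The Egr1 relation was thus lost with any 1 of the 3 replicate numbers left out.

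**Figure D5:**
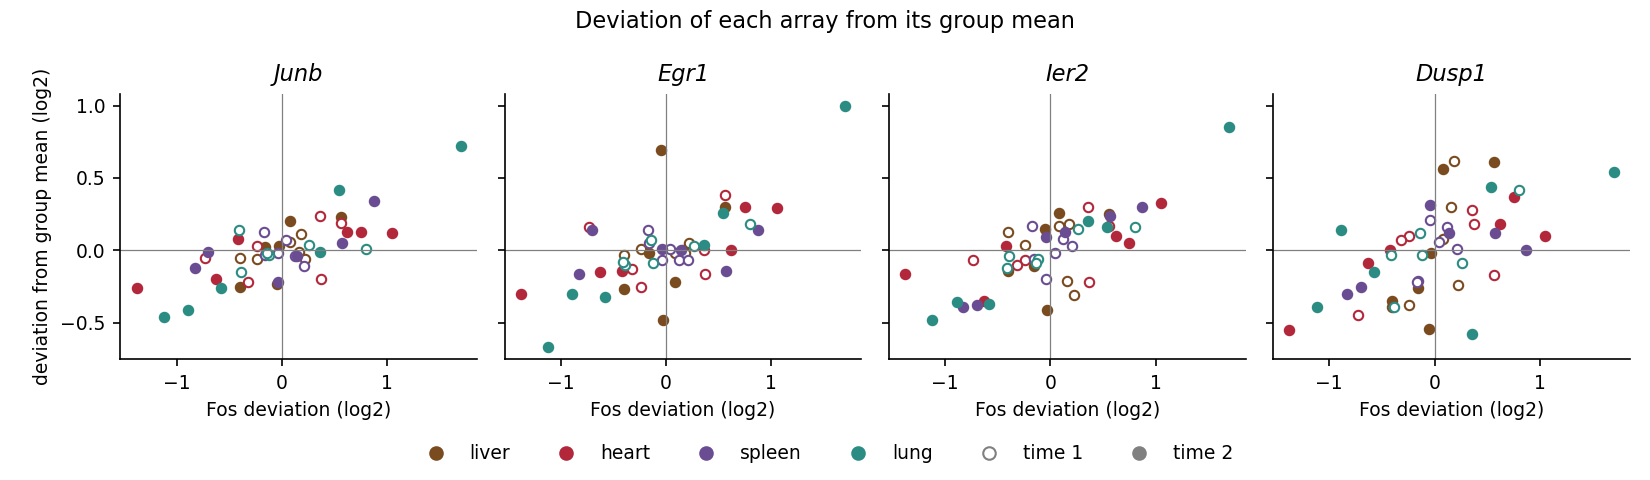
Deviation of each array from the mean of its group (log2) for Junb, Egr1, Ier2 and Dusp1 on the y axes against that of Fos on the x axes, 48 arrays; colours are tissues, open points time 1 and filled points time 2. The lung array at a Fos deviation of 1.70 is the highest point for Junb, Egr1 and Ier2, and for Dusp1 the highest points are liver arrays.

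In C57BL/6J at time 2, replicate 1 was the highest of its 3 arrays for Fos in all 4 tissues: 6.88 against 6.16 and 5.93 in liver, 8.46 against 6.99 and 6.78 in heart, 8.46 against 6.77 and 7.55 in spleen, and 12.19 against 9.91 and 9.36 in lung. Over the 10 lead sets this replicate was the highest of the 3 for 10 in lung, 7 in liver, 5 in heart and 5 in spleen. In A/J at time 2, replicate 1 was the lowest for Fos in liver, heart and spleen (5.91, 6.56 and 6.24) and the middle one in lung (10.39). The sources do not say whether arrays of 1 replicate number came from the same mouse, and the pattern is given as a description with no test.

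The genes whose deviations were most like the mean standardized deviation of the 10 members over the 48 arrays were Btg2 (r = 0.80), an antiproliferative gene, Zfp36 (0.74), which destabilizes short-lived messages, Nfkbiz (0.73), a nuclear IkappaB protein, Ccn1 (0.71), a secreted matrix protein, Tnfrsf1a (0.65), a TNF receptor, Id3 (0.64), an inhibitor of basic helix-loop-helix factors, Egr2 (0.63) and Nr4a1 (0.63), an orphan nuclear receptor. Arrays of a group appear to share their array run, and these values are a description. The mean standardized deviation of the members was largest, at 2.11, in C57BL/6J lung time 2 replicate 1. That array also had the highest signal of the 48 for each of these genes except Tnfrsf1a. The correlations were not computed without it. Over the 16 group means, the levels most like those of Fos among its own class were Dusp1 (r = 0.97), Jun (0.91), Ier3 (0.88) and Gadd45b (0.88), and lowest was Atf3 (0.55). Outside the class they were Stx3 (0.96), Efnb2 (0.96), Phlda3 (0.95), Spef1 (0.95) and Fam171a1 (0.95). The 16 means fall into 4 tissues, and lung is 1 of them.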

How the data were processed

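The deposited table holds log2 signals of 12488 probe sets on 48 arrays. The sources used here do not give the authors' summary method or normalization for these log2 values. The 66 control probe sets were left out, and no floor or filter was applied. Array medians were 8.863 to 9.010. Groups came from the sample titles and genes from the platform table. The members and lists were chosen with earlier results of these data known.

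Each comparison was fitted with limma 3.58.1 in R 4.3.3 over all 12422 probe sets. Strain and time were averaged over each other within a tissue, tissues were compared at 1 time, and differences over 4 tissues were F tests. The scripts were tested on simulated data. Every probe set of a member is named, with at most 4 list genes of the smallest p in each comparison, 8 genes most like the members and 5 most like Fos. Deviations of single arrays from their group mean were compared by 100000 permutations within groups (numpy 2.4.6, scipy 1.17.1). Alternatives were quantile normalization, a filter on dim probe sets, a replicate block, 1 fit over all arrays, single strains, times or tissues, and each array left out. Leaving out 5 spleen arrays was chosen after seeing the data.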

Additional observations from a re-analysis of the deposited data

Results flagged for a closer look

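Effects that differed between tissues, or between times within a tissue, by a test of the difference itself were found for 7 of the 10 genes, with limma's adjusted p. Read against all probe sets, time by tissue was called for 6 of 16 sets (55.0% of all), strain by tissue for 3 (23.7%) and strain by time in liver for 2 (4.90%). The share of these sets was below that of all sets for the first 2 differences and rests on 2 sets for the third.

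For the strain difference in liver, the change from time 1 to time 2 passed for both Gadd45b sets, 102779_at (adjusted p = 0.0364) and 161666_f_at (adjusted p = 0.00872). The strain difference was unequal over the 4 tissues for Ier3 (adjusted p = 0.00021) and for Gadd45b by 102779_at (adjusted p = 0.00509) and 161666_f_at (adjusted p = 0.00622). The difference between the times was unequal over the tissues for Fos 161716_at (adjusted p = 0.000483), Fosb (adjusted p = 0.000896; 0.0544 without replicate 1 and 0.0682 without replicate 2), Junb 102362_i_at (adjusted p = 0.0122), Egr1 161802_i_at (adjusted p = 0.0447; 0.0693 without replicate 1 and 0.737 without replicate 2), Atf3 104155_f_at (adjusted p = 0.00366) and Gadd45b 102779_at (adjusted p = 1.76e-05).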

How the results depend on the processing

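Counts are of the 16 probe sets called, or of the 9 relations of other genes with Fos. Among calls named in the text, 110 of 113 were kept under quantile normalization and 79 of 79 under the filter on dim probe sets (6211 sets, 10 of the 16 members). In 1 fit over all 48 arrays 101 of 104 were kept, and 1174 of 1275 when arrays or replicate numbers were left out. Fewer were kept with fewer samples: 24 of 40 without the 5 spleen arrays, 12 of 24 in A/J alone and 9 of 24 in C57BL/6J alone. With time 1 alone 1 of 4 was kept, and with time 2 alone 2 of 4. No direction reversed in these settings. With 1 fit over all arrays, the strain count in liver was 1 in place of 0 and the strain by time count in lung 1 in place of 0. With time 1 alone the strain count was 1 in liver and 0 in spleen, in place of 0 and 3. With time 2 alone it was 1 in heart and 0 in lung, in place of 0 and 1. With A/J alone the time count was 3 in liver, 3 in heart and 5 in spleen, in place of 5, 6 and 8. With C57BL/6J alone it was 1 in heart, 4 in spleen and 1 in lung, in place of 6, 8 and 5. With the filter on dim sets, which tests fewer sets, the count was 1 for strain by time in liver, 5 for liver against heart, 6 for liver against spleen and 6 for spleen against lung, in place of 2, 9, 10 and 10. Without the 5 spleen arrays with pancreas markers, an alternative chosen after seeing the data that leaves fewer samples, it was 0 for strain, 1 for time and 6 for liver against spleen, in place of 3, 8 and 10. The relations with Fos numbered 1 in liver alone, 0 in heart alone and 0 in spleen alone, in place of 4 over all arrays. Apart from fewer samples or sets tested, the cause was not tested.

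The replicate numbers were checked for pairing by whether all 3 numbers correlated above 0.1. This was so in 0 of 8 pairs of strain groups, 0 of 8 of time groups and 0 of 24 of tissue groups. With 3 arrays per group, and tissues of 1 mouse free to deviate differently, this check cannot exclude that equal numbers share a mouse. With the replicate number as a block, the strain count in lung was 0 in place of 1 (Ier3 0.64, adjusted p = 0.0572), the strain by time count in liver 1 in place of 2, and 108 of 113 named calls were kept.

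With single arrays left out, the count ran from 0 to 1 for strain in heart and in lung, 2 to 3 in spleen, 4 to 6 for time in liver, 5 to 7 in heart, 7 to 8 in spleen, 3 to 7 in lung (3 without C57BL/6J time 1 replicate 2 or 3) and 1 to 3 for strain by time in liver. It ran from 8 to 9 for liver against heart, 7 to 11 for liver against spleen, 12 to 13 for liver against lung at time 2 and 11 to 14 at time 1. With a replicate number left out, it ran from 1 to 4 for strain by tissue, 3 to 6 for time by tissue and 0 to 3 for the relations with Fos. The files carry no detection calls, so whether the lowest signals, such as Fos in liver, exceed background was not tested.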
